A study of Homo sapiens with 6 samples.

Results

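The genes described here encode parts of the replicative DNA helicase, and the sliding clamp of DNA replication. These genes are those of the MCM ring (MCM2, MCM3, MCM4, MCM5, MCM6 and MCM7), the GINS subunits GINS1, GINS2 and GINS3, and the clamp PCNA. They are 10 of the 14883 genes with a named probe set, and each of them was read by 1 probe set. They were taken by name as parts of these complexes, and they were also chosen by their shBRG1 minus NSC differences, so these differences are given as a description, with no test. The samples were cultures of the human neuroblastoma cell line SK-N-BE(2), infected with a lentivirus (a pLKO vector) carrying a hairpin against BRG1 (shBRG1, n = 3) or a non-silencing control hairpin (NSC, n = 3). BRG1, encoded by SMARCA4, is an ATPase subunit of the SWI/SNF chromatin remodelling complex. Total RNA was extracted at 48 h, and each Affymetrix array received 200 ng from 1 sample. The cultures of both groups were infected and grew in the same medium, and uninfected cultures were not among the samples. The share of cells infected in a culture was not analysed here. The labels do not say whether the triplicate infections were independent cultures, so p-values here measure the spread among 3 arrays a group and that spread may be technical only. Depletion of SMARCA4 itself was not analysed here, and the groups rest on the labels.

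Before S phase, the MCM proteins are loaded as a closed, inactive ring around DNA at replication origins, a step called licensing. In S phase, CDC45 and the GINS complex join the ring to form the active helicase that unwinds DNA at the fork. PCNA is a ring that slides along DNA behind the fork and holds polymerases and repair factors in place. Genes of this machinery are known targets of E2F transcription factors and are transcribed as cells enter S phase. In neuroblastoma, MCM7 is a known target of the transcription factor MYCN. Because whole cultures were measured, fewer cells in S phase and less RNA per cell cannot be told apart.

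The promoters are shown first because genes that lay on opposite sides of the comparison hold the same short E2F letters. The RefSeq table (GRCh38.p14) gave a promoter for 8 of the 10 genes, all but MCM4 and MCM5, and each window runs from 250 bases before the annotated start of the gene to 50 bases after it. The E2F letters searched on both strands were TTTCGCGC, TTTGGCGC, TTTCCCGC and TTTGCCGC. The 250 bases before the start are printed for MCM6 and PCNA, which were lower in shBRG1, and for MCM7 and GINS2, which were higher, with E2F letters in capitals. They lie at chr2:135876444-135876693 (MCM6), chr20:5126623-5126872 (PCNA), chr7:100101398-100101647 (MCM7) and chr16:85688955-85689204 (GINS2), all on the minus strand of GRCh38.p14, and are written 5′ to 3′ towards the gene.
MCM6: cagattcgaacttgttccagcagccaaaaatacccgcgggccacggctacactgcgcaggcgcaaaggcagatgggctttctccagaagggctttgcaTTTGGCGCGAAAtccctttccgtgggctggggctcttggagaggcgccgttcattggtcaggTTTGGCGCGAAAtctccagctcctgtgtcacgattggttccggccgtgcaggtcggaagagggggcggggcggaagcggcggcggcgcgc
PCNA: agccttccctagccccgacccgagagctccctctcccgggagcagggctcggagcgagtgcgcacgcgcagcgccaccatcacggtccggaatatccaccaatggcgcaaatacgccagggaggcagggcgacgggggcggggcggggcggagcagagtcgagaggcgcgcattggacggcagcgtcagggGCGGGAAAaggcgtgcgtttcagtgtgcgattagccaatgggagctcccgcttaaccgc
MCM7: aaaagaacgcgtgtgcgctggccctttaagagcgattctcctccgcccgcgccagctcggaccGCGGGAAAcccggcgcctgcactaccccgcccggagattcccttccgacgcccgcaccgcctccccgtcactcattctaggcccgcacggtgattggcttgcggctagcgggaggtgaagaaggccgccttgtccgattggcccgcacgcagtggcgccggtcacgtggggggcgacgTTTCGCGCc
GINS2: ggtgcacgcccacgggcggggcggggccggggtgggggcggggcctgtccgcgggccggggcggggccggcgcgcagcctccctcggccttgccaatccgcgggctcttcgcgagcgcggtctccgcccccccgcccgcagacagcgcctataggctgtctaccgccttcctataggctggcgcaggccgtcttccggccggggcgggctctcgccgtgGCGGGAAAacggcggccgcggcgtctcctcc

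All 8 promoters held the E2F letters, against 3.33% of the 27305 promoters of the same length in the table and 4.49% of the 10748 promoters of measured genes. MCM6 had 4 matches, which form 2 overlapping pairs that begin 152 and 90 bases before the start. MCM2, MCM3 and MCM7 had 2 matches each, and GINS1, GINS2, GINS3 and PCNA 1 each. The 2 matches of MCM2 overlap on opposite strands, while those of MCM3 and of MCM7 lie apart. The match of PCNA begins 59 bases before the start and overlaps a GC box. The letters were thus present at MCM6 and PCNA, lower in shBRG1, as at MCM7 and the GINS genes, higher in shBRG1. Among 43 promoters of other measured replication genes, 14 held them. The CCAAT box (CCAAT) stood in 6 of the 8 promoters, GINS3 and MCM2 being without it, against 35.7% of all promoters. The GC box (GGGCGG) stood in 7 of 8, MCM3 being without it, against 44.6%, and can overlap E2F letters. The E-box CACGTG was found at MCM2 and MCM7, against 7.43% of all promoters. The cell cycle element TTTGAA was found in 0 of 8, against 15.4%. Among promoters of measured genes the shares were 36.0% (CCAAT box), 60.5% (GC box), 9.02% (E-box) and 11.8% (TTTGAA). A match describes letters only, and no binding of a factor was measured.

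**Figure D1:**
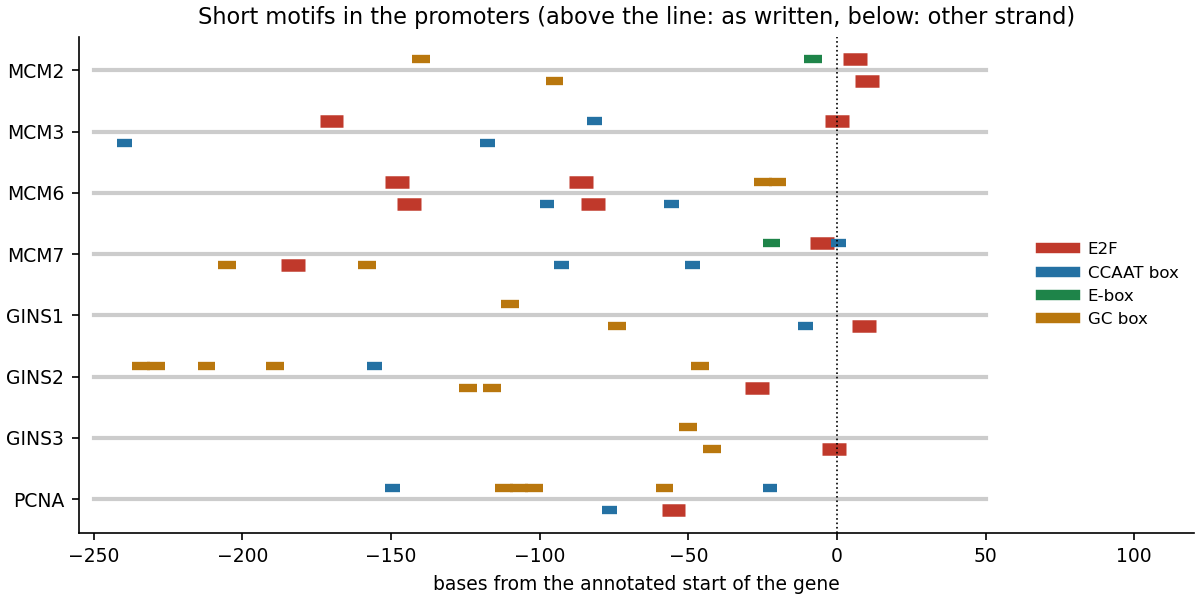
Matches of 4 short motifs in the promoters of 8 helicase and clamp genes, by distance in bases from the annotated start (dotted line), with matches as written above each grey line and matches on the other strand below it. Every promoter carries at least 1 E2F match, and MCM6 carries 4.

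PCNA and MCM6 were the genes with lower levels in shBRG1 cells. PCNA had log2 values of 9.62, 9.80 and 9.67 in shBRG1 cells, against 10.26, 10.18 and 10.23 in NSC cells. All 3 shBRG1 values lay below all 3 NSC values, by at least 0.38. The means were 9.70 ± 0.10 in shBRG1 and 10.22 ± 0.04 in NSC (SD, n = 3 each), a difference of -0.53 (SE 0.08), or 1.44-fold lower. MCM6, a ring subunit, had 7.98, 8.12 and 8.11 in shBRG1 cells, against 8.60, 8.42 and 8.58 in NSC cells. Its groups were apart by 0.31 at the nearest arrays, and its difference was -0.47 (SE 0.08), which leaves 72.4% of the NSC level. The standard errors come from a linear model fitted with limma to all named genes.

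MCM5 and MCM7, subunits of the same ring as MCM6, lay on the other side. MCM5 had 9.03, 9.08 and 9.07 in shBRG1 cells, against 8.64, 8.49 and 8.70 in NSC cells. The groups did not overlap, and the mean was 9.06 ± 0.03 in shBRG1 and 8.61 ± 0.11 in NSC (SD, n = 3 each), 1.36-fold higher (0.45, SE 0.08). MCM7 had 9.36, 9.45 and 9.38 in shBRG1 cells, against 9.04, 8.99 and 9.10 in NSC cells. Again every shBRG1 array was above every NSC array, with a difference of 0.36 (SE 0.07).

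The other ring subunits, MCM2, MCM3 and MCM4, differed little. MCM2 had 8.64, 8.73 and 8.65 in shBRG1 cells, against 8.55, 8.44 and 8.59 in NSC cells, a difference of 0.15 (SE 0.07). Its groups were apart by only 0.05 at the nearest arrays, a gap of similar size to the SD of 0.05 in shBRG1 and 0.08 in NSC. MCM3 had 9.84, 9.91 and 9.80 in shBRG1 cells, against 9.79, 9.71 and 9.91 in NSC cells, a difference of 0.04 (SE 0.08). MCM4 had 9.97, 9.98 and 9.85 in shBRG1 cells, against 9.94, 9.81 and 9.90 in NSC cells, a difference of 0.05 (SE 0.07). For MCM3 and MCM4 the groups overlap, and the sign of both differences turned after cyclic loess scaling, with -0.02 for MCM3 and -0.01 for MCM4.

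All 3 GINS genes were higher in shBRG1 cells, by similar amounts. GINS1 had 8.86, 8.85 and 8.91 in shBRG1 cells, against 8.53, 8.39 and 8.42 in NSC cells, a difference of 0.43 (SE 0.07), or 1.34-fold. GINS2 had 8.87, 9.02 and 9.15 in shBRG1 cells, against 8.64, 8.56 and 8.67 in NSC cells, a difference of 0.39 (SE 0.09). GINS2 had the widest spread of the 10 genes within shBRG1 (SD 0.14). GINS3 had 8.17, 8.20 and 8.23 in shBRG1 cells, against 7.75, 7.78 and 7.96 in NSC cells, a difference of 0.37 (SE 0.08). In each GINS gene the 2 groups were apart, by 0.32 for GINS1, 0.21 for GINS2 and 0.20 for GINS3. The remaining subunit of the complex, GINS4, was read by 2 probe sets. The brighter one had 5.57, 5.71 and 5.55 in shBRG1 cells, against 6.06, 5.69 and 6.09 in NSC cells, so that its groups overlap. Its difference was -0.33 (SE 0.12, limma adjusted p = 0.10), and the dimmer one, averaging 2.59 in shBRG1 and 2.77 in NSC, lay below the array medians.

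**Figure D2:**
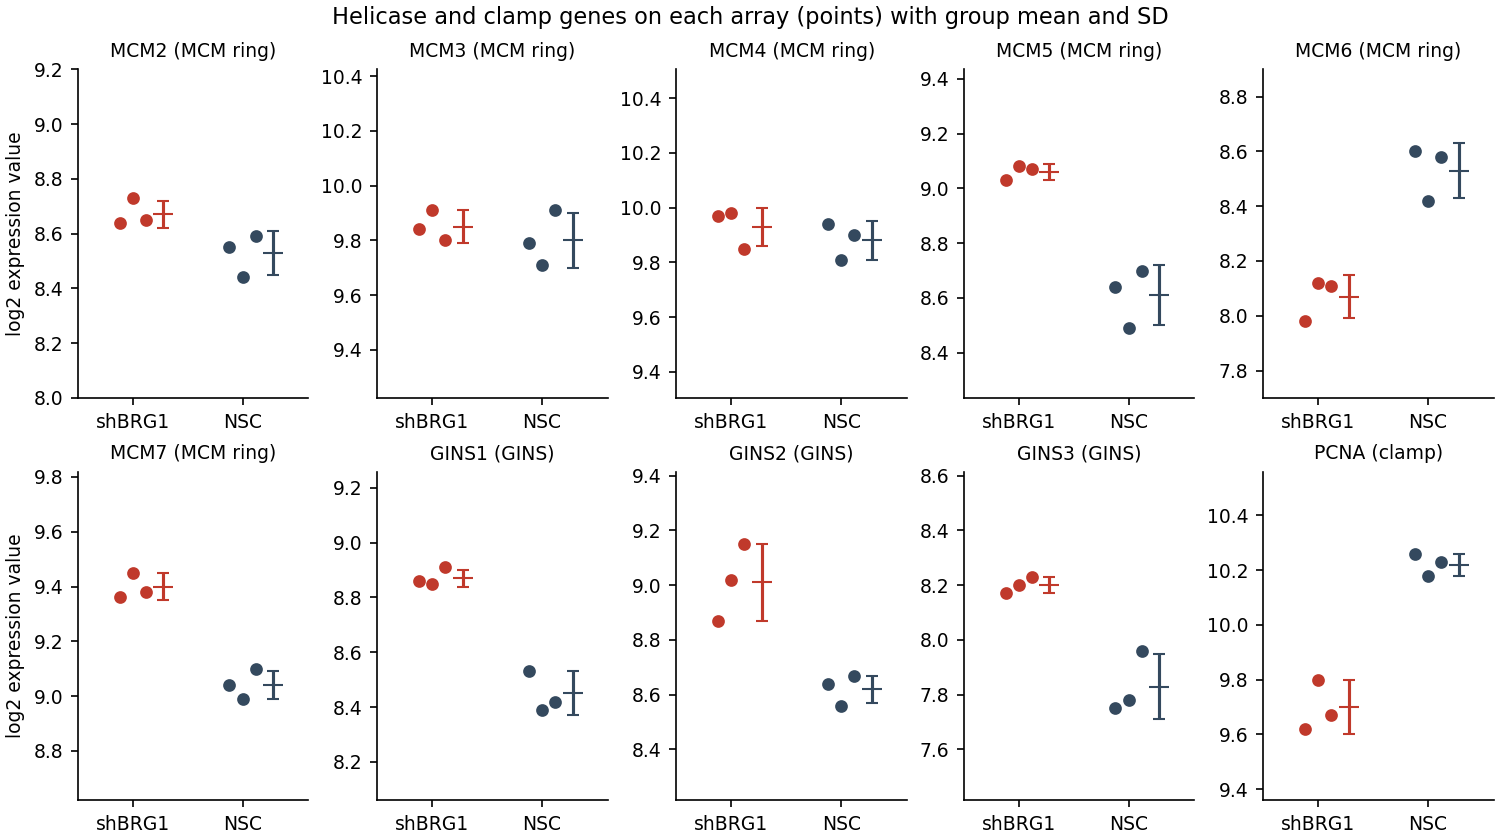
Log2 expression value (y axis, a span of 1.2 in each panel) of each helicase and clamp gene on the 3 shBRG1 arrays (red, left) and the 3 NSC arrays (dark, right), with group mean and SD beside the points. PCNA and MCM6 lie lower in shBRG1, MCM5, MCM7 and the GINS genes higher, and the groups overlap for MCM3 and MCM4.

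In the fit over all genes, 5 of the 10 were past the threshold of an adjusted p of 0.05 and higher in shBRG1, and 2 were past it and lower. The same rule took in 9.78% of all genes on the higher side, 7.19% on the lower side and 17.0% in all, and 43.0% when only the 7441 genes over the median level were tested. The groups were apart for 8 of the 10, against 35.5% of all genes. Since these genes were chosen on the same comparison, nothing is read from these counts. The number on the higher side was 3 without shBRG1 replicate 2 or 3 or NSC replicate 1 or 2, where GINS2 and GINS3 missed the threshold, and PCNA and MCM6 stayed on the lower side without any 1 array. The median difference of the 10 genes was 0.26, with 0.10 for the MCM ring and 0.39 for GINS. It was 0.01 over all genes and 0.06 over the genes above the median level.

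**Figure D3:**
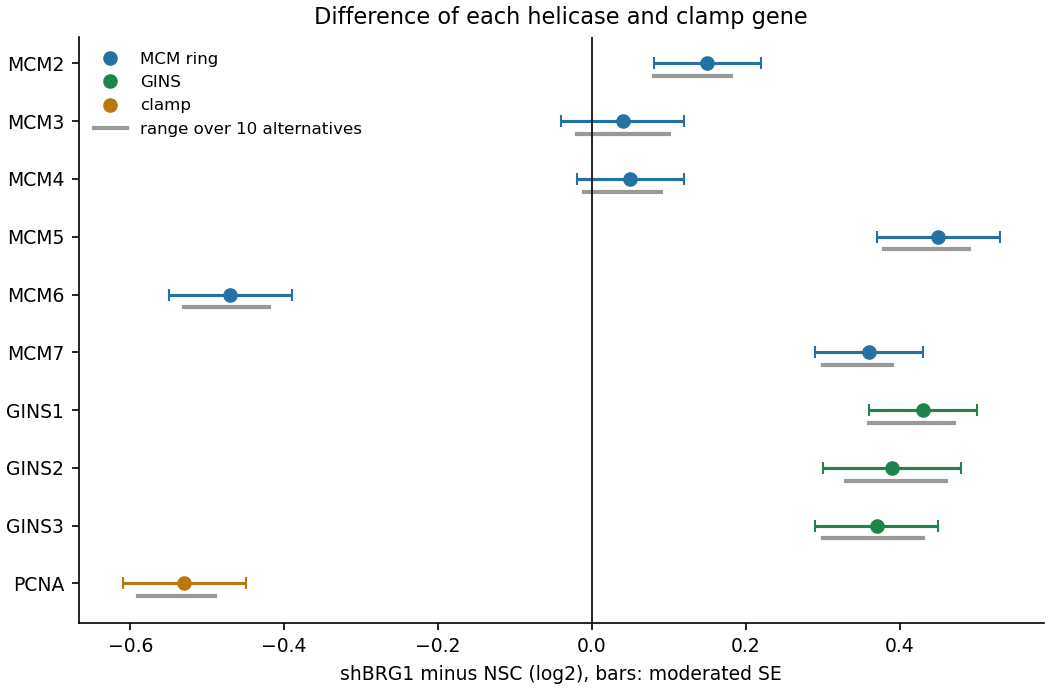
Difference of shBRG1 minus NSC on the log2 scale (x axis) for each gene, with the moderated SE as bars, coloured by MCM ring, GINS and clamp. The grey line under each point is the range over 10 alternatives, which crosses 0 only for MCM3 and MCM4. Averaged probe sets and the replicate block are among the 10 but cannot change the difference.

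In a difference between genes on the same array, any constant scaling of that array cancels. The absolute size of such a difference has no meaning, since the probes differ, and only its change between groups is read. MCM5 minus MCM6 was 1.05, 0.96 and 0.96 in shBRG1 cells, against 0.05, 0.07 and 0.12 in NSC cells. The balance between the transcripts of these 2 ring subunits was therefore shifted by 0.91 on the log2 scale, or 1.88-fold. The SD was 0.05 in shBRG1 and 0.04 in NSC, and protein was not measured. MCM7 minus MCM6 was 1.39, 1.34 and 1.27 in shBRG1 cells, against 0.44, 0.57 and 0.52 in NSC cells, a shift of 0.82. PCNA minus the mean of the 6 MCM genes was 0.48, 0.59 and 0.53 in shBRG1 cells, against 1.17, 1.20 and 1.10 in NSC cells. The PCNA transcript was thus 1.54-fold lower relative to the mean of the MCM transcripts. The mean of the 3 GINS genes minus the mean of the ring was -0.50, -0.52 and -0.38 in shBRG1 cells, against -0.78, -0.73 and -0.78 in NSC cells, a shift of 0.30. In all 4 differences the groups did not overlap. For MCM5 minus MCM6 and MCM7 minus MCM6 this follows from the single genes, whose groups were apart in opposite directions, and adds nothing to them. No share over other gene pairs was computed, and like the single genes the differences are given without a test.

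**Figure D4:**
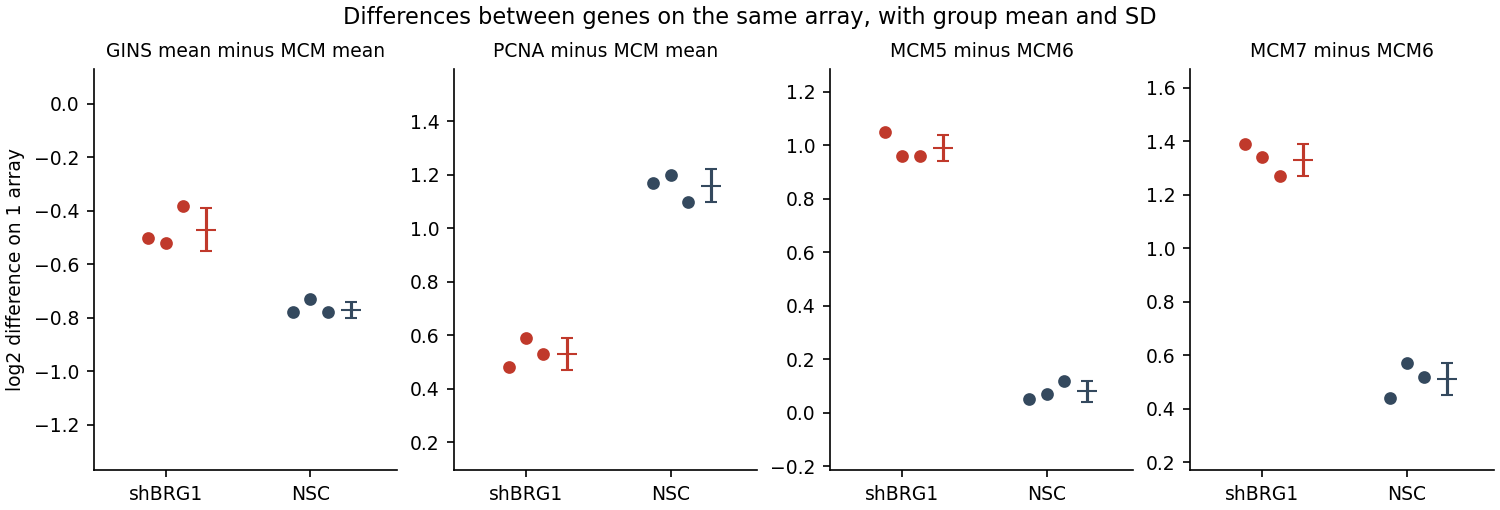
Log2 difference between genes on the same array (y axis, a span of 1.5 in each panel) in the 3 shBRG1 arrays (red, left) and the 3 NSC arrays (dark, right), with group mean and SD. MCM5 minus MCM6 averages 0.99 in shBRG1 and 0.08 in NSC, and PCNA minus the MCM mean averages 0.53 in shBRG1 and 1.16 in NSC.

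The profiles over the 6 arrays show the same values gene against gene. After each gene was centred on its own mean, MCM3 and MCM4 were the nearest of the 45 pairs, with a root-mean-square distance of 0.052. MCM7 and GINS3 followed at 0.053, then MCM5 with MCM7 and MCM6 with PCNA at 0.059 each. The 7441 genes brighter than the median gene were then compared, leaving out the helicase and clamp genes among them. R3HDM1 (0.016) and SKA2 (0.021), which encodes a spindle and kinetochore protein, lay nearest to PCNA. R3HDM1 had 7.49, 7.68 and 7.56 in shBRG1 cells, against 8.15, 8.10 and 8.10 in NSC cells. The nearest to MCM6 were FRMD5 (0.022) and PAQR8 (0.026). MCM3 was nearest to CDC7 (0.022), the kinase that phosphorylates the MCM ring at origin firing, and to TIMM17A (0.023). MCM5 was nearest to PLTP and NOP53 (0.022 each), MCM7 to TAOK2 (0.019) and ZNF8 (0.020), and GINS1 to HPDL (0.019) and KIAA1586 (0.028). GINS2 was nearest to TRAFD1 (0.034) and IGF2BP1 (0.039), GINS3 to KLHL42 (0.013) and TEX261 (0.014), MCM2 to DPP9 and WDR83OS (0.013 each), and MCM4 to ARL6IP4 (0.017) and TSC2 (0.020). These distances cover 6 arrays in 2 groups, so a small one mostly says that the difference between groups is of similar size.

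MCM7 carries in an intron the genes of 3 microRNAs, whose mature sequences from RefSeq (GRCh38.p14, chromosome 7, minus strand) are shown because they share the transcript of a gene that was higher in shBRG1. Capitals mark the seed, bases 2 to 8, which pairs with target transcripts.
hsa-miR-106b-5p: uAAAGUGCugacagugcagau
hsa-miR-93-5p: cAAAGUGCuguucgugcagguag
hsa-miR-25-3p: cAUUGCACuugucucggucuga

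The seeds of miR-106b-5p and miR-93-5p are the same, and that of miR-25-3p differs. The array reads the microRNA genes by their own probe sets, which need not measure the mature form. MIR106B had 5.37, 5.16 and 5.18 in shBRG1 cells, against 4.86, 5.20 and 5.15 in NSC cells (difference 0.17, SE 0.11, limma adjusted p = 0.35). MIR25 had 6.18, 6.25 and 6.12 in shBRG1 cells, against 6.02, 6.01 and 6.01 in NSC cells (difference 0.17, SE 0.07, limma adjusted p = 0.14). MIR93 averaged 4.24 ± 0.08 in shBRG1 and 4.25 ± 0.25 in NSC (SD, n = 3 each). With limma, 0 of the 3 passed the threshold, MIR25 had an unadjusted p of 0.038, and their host gene MCM7 differed by 0.36. The comparison of host and microRNA genes was not tested. 

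Around the helicase and clamp, replication genes were described from lists of known parts of the machinery, written with earlier results of these data known. Of 88 genes in 9 lists, 49 were measured, of which 12 were lower, 3 were higher and 34 were not past the threshold (limma, adjusted p of 0.05 over all genes). That is 30.6% past the threshold, against 17.0% of all genes, and the median difference was -0.07, against 0.01. The list genes are mostly bright, with 48 of the 49 over the median level. When only genes over that level were tested, 45.8% of the list genes passed (6 higher, 16 lower), against 43.0% of all such genes. The share past the threshold in either direction is thus near the background of genes of that level. By direction, 1977 of all 7441 such genes were higher and 1224 lower. Higher calls were thus the more frequent over all such genes, and lower calls among the list genes. This difference in direction was not tested. The median difference of these list genes was -0.06, against 0.06 over all such genes. Measured here means having a named probe set, and 36471 of 52299 probe sets carried no symbol. Genes counted as not measured may therefore still be read by the array. The polymerase and RPA list had 0 of 15 genes with a named probe set and was not analysed here.

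In the licensing list, 1 of 2 measured genes was lower. CDC6, which loads the MCM ring at origins, averaged 8.58 ± 0.09 in shBRG1 and 8.97 ± 0.04 in NSC (SD, n = 3 each), a difference of -0.38 (SE 0.07, limma adjusted p = 0.012). CDT1, its partner in loading, had a difference of 0.16 (limma adjusted p = 0.15). Among 10 measured genes of helicase activation, 2 were lower and 0 higher by limma (4 lower and 2 higher at an unadjusted p of 0.05). DBF4, the activating subunit of the CDC7 kinase, was 1.68-fold lower, with 6.66, 6.69 and 6.60 in shBRG1 cells, against 7.41, 7.33 and 7.47 in NSC cells (-0.75, SE 0.07, limma adjusted p = 8.1e-04). CDC7 itself had a difference of 0.04 (SE 0.08). DONSON, which helps to bring GINS to the ring, was 1.49-fold lower (-0.58, SE 0.07, limma adjusted p = 0.0021). CDC45, the partner of MCM and GINS in the active helicase, averaged 7.77 ± 0.01 in shBRG1 and 7.59 ± 0.12 in NSC (0.18, SE 0.08, limma adjusted p = 0.16, SD, n = 3 each). MCM10, which takes part in helicase activation, had a difference of 0.22 (SE 0.06, limma adjusted p = 0.052).

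Of 5 MCM homologues and partners, 1 passed the threshold. MCM8, which with MCM9 forms a helicase of recombination, was 1.19-fold lower (-0.25, SE 0.06, limma adjusted p = 0.034). Its call was lost in 9 of 13 alternatives, among them leaving out any 1 array, with an adjusted p of up to 0.11. Of 3 measured genes that act on the clamp, 2 were lower. DSCC1, a subunit of an alternative clamp loader, had 6.90, 6.79 and 6.76 in shBRG1 cells, against 7.48, 7.60 and 7.65 in NSC cells (-0.76, SE 0.08, limma adjusted p = 0.0012). FEN1, the flap endonuclease that works on PCNA during lagging strand synthesis, differed by -0.41 (SE 0.08, limma adjusted p = 0.011). PCLAF, a PCNA-binding factor, had a difference of 0.04 (SE 0.08).

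The fork protection list was split. TIPIN was higher (0.42, SE 0.07, limma adjusted p = 0.0071), as was its partner TIMELESS (0.30, SE 0.08, limma adjusted p = 0.039), although TIMELESS lost its call without any 1 array and after cyclic loess, with an adjusted p of up to 0.12. CLSPN, the checkpoint mediator claspin, was lower (-0.56, SE 0.11, limma adjusted p = 0.013), and so was SUPT16H, a subunit of the histone chaperone FACT (-0.29, SE 0.07, limma adjusted p = 0.022). SUPT16H lost its call without any 1 of 5 arrays, shBRG1 replicate 2 excepted, with an adjusted p of up to 0.080. In the nucleotide supply list, 0 of 4 measured genes passed by limma (1 lower at an unadjusted p of 0.05). In chromatin assembly, 1 of 4 was lower, UHRF1, a reader of hemimethylated DNA (-0.41, SE 0.07, limma adjusted p = 0.0087).

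The regulators of S-phase transcription held the largest falls among the 9 lists. E2F7, an atypical E2F that represses E2F targets, had 5.93, 5.85 and 5.89 in shBRG1 cells, against 7.14, 7.33 and 7.16 in NSC cells, 2.50-fold lower (-1.32, SE 0.08, limma adjusted p = 1.8e-04). TFDP1, the DNA-binding partner of the classical E2F proteins, had 6.78, 6.85 and 6.93 in shBRG1 cells, against 7.75, 7.76 and 7.91 in NSC cells, 1.94-fold lower (-0.96, SE 0.08, limma adjusted p = 5.1e-04). The pocket proteins of the RB family went in opposite directions. RBL1 was lower (-0.38, SE 0.07, limma adjusted p = 0.0091) and RBL2 higher (0.55, SE 0.07, limma adjusted p = 0.0028), while RB1 had a difference of -0.08 (SE 0.07). In all, 3 of 15 measured regulators were lower, 1 was higher and 11 did not pass. E2F1 (0.07, SE 0.11), E2F2 (-0.04, SE 0.06) and E2F3 (-0.07, SE 0.07), which activate S-phase genes, were among the 11.

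**Figure D5:**
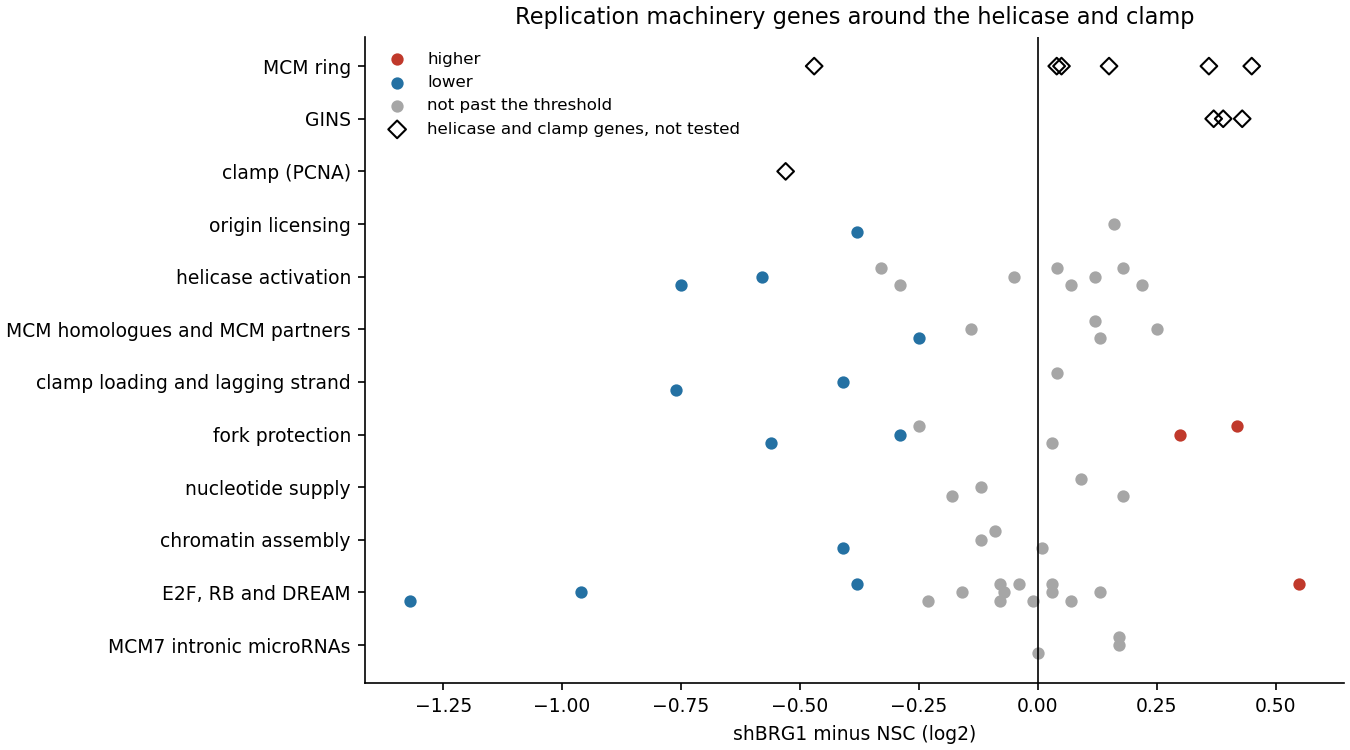
Difference of shBRG1 minus NSC on the log2 scale (x axis) for the helicase and clamp genes (open diamonds) and each measured gene of the replication lists and the MCM7 intronic microRNAs (dots, coloured by the limma call at an adjusted p of 0.05). E2F7 lies farthest left at -1.32 and RBL2 farthest right at 0.55.

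Genes past the threshold beside the 10 loci lay in both directions. Of 20 measured neighbours, 1 on each side of each gene by start position in the GRCh38.p14 gene table, 5 were higher, 4 were lower and 11 were not past the threshold, against 17.0% of all genes past it, with a median difference of 0.00. With only genes over the median level tested, 11 of 16 neighbours passed, against 43.0% of all such genes, and no test of that difference was made. PCNA (chr20:5114953-5126622) lies 0.386 kb from CDS2, which had a difference of -0.03 (SE 0.06), and 1.88 kb from TMEM230, which was higher (0.25, SE 0.07, limma adjusted p = 0.041). MCM7 (chr7:100092728-100101397) lies 0.541 kb from COPS6, with a difference of -0.01 (SE 0.07), and 18.2 kb from CNPY4 (0.35, SE 0.11, limma adjusted p = 0.075). MCM5 (chr22:35400140-35455031) lies 5.93 kb from HMOX1, the heme oxygenase gene, which was higher (0.40, SE 0.08, limma adjusted p = 0.012), and 152 kb from MB (-0.07, SE 0.13). MCM6 (chr2:135839626-135876443) had LCT-AS1 (0.15, SE 0.11) and, at 238 kb, the chemokine receptor gene CXCR4 (-1.14, SE 0.20, limma adjusted p = 0.0085) as neighbours. LCT, the lactase gene, starts before LCT-AS1 but ends nearer to MCM6, at 2.44 kb, and had a difference of 0.06 (SE 0.12).

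At MCM2 the neighbours differed in opposite directions, PODXL2 at 6.75 kb by 0.68 (SE 0.07, limma adjusted p = 0.0010) and PLXNA1 at 561 kb by -0.63 (SE 0.07, limma adjusted p = 0.0014). PAQR8 beside MCM3 was lower (-0.50, SE 0.08, limma adjusted p = 0.0056), as was UBE2V2 beside MCM4 (-0.39, SE 0.07, limma adjusted p = 0.0077). IL17F, on the other side of MCM3, had a difference of 0.01 (SE 0.10) and SPIDR, on the other side of MCM4, one of 0.19 (SE 0.07). GSE1, which overlaps GINS2, was higher (0.29, SE 0.07, limma adjusted p = 0.029), and C16orf74 on the other side of GINS2 had a difference of -0.14 (SE 0.08). CFAP263 beside GINS3 was higher (0.42, SE 0.09, limma adjusted p = 0.015), and NDRG4 on its other side had a difference of -0.20 (SE 0.11). Beside GINS1, ABHD12 (0.02, SE 0.06) and NINL (-0.07, SE 0.18) did not pass.

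The arrays themselves were alike. Each gave 52299 log2 values with a median between 3.77 and 3.84, so all 10 genes, with group means of 7.83 to 10.22, were far above the middle of the array. Pearson correlations over probe sets were 0.9907 to 0.9925 within groups and 0.9860 to 0.9881 between them. The labelled cell type was checked with sympathetic neuroblast markers, 9 of 10 of which were measured. Their mean level was 9.34 to 9.38 on the shBRG1 arrays and 9.60 to 9.63 on the NSC arrays. By limma 6 of 9 were lower in shBRG1 and 0 higher (1 higher at an unadjusted p of 0.05). Over all genes, 7.19% were lower and 9.78% higher. With only genes over the median level tested, 43.0% passed in either direction. The mean of 4 measured Schwann and glial markers was 3.80 to 3.91 in shBRG1 and 4.11 to 4.19 in NSC, near the array medians. The measured fibroblast markers, LUM and DCN, were both higher, with a mean of 6.94 to 7.11 in shBRG1 and 6.52 to 6.70 in NSC. LUM alone averaged 8.63 in shBRG1 and 8.24 in NSC, and DCN 5.39 in shBRG1 and 4.96 in NSC. The part of these shifts in the differences of the helicase and clamp genes was not tested.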

How the data were processed

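Gene expression was measured on 6 single-colour Affymetrix arrays. The authors deposited 1 log2 value per probe set and array. RMA is named in the submitters' processing notes, beside R 3.1.0, limma 3.19 and oligo 1.27. The log2 scale was taken from the range of the values, 1.19 to 13.8. RMA sets arrays to a common distribution, so a change common to all genes is removed. Genome build, detection calls and scan batches are not given in the sources used here.

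Of 52299 probe sets, 15828 carried 1 gene symbol, 0 several and 36471 none; symbols were updated by gene identifier through the GRCh38.p14 gene table. The brightest probe set per gene over 6 arrays was kept (14883 genes). Groups follow the titles, where shBRG1 is spelled shRG1. limma 3.58.1 in R 4.3.3 (lmFit, eBayes, two-sided, no covariate) was fitted to all genes, with Benjamini and Hochberg adjustment. The smallest two-sided p of an exact permutation test with 3 arrays a group is 0.1. The number of arrays limits the precision, with a median SE of 0.09. The fit was tested on simulated data.

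The genes, the lists and the tests were chosen with earlier results of these data known. Named besides the 10 genes were up to 3 genes per list and direction with the smallest p, the MCM7 microRNAs, the measured neighbours by start position (and LCT, added later) and the 2 genes nearest in profile. CDT1, CDC7, CDC45, GINS4, MCM10, PCLAF, RB1, E2F1, E2F2, E2F3, LUM and DCN were named after their values were seen. Sequences are from RefSeq. Figures were drawn with matplotlib 3.10.9.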

Additional observations from a re-analysis of the deposited data

How the results depend on the processing

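PCNA and MCM6 stayed lower, and MCM2, MCM5, MCM7 and the 3 GINS genes higher, under both scalings and without any 1 array. Of the 10 alternatives, averaged probe sets and the replicate block could not change these differences. Each gene has 1 probe set, and each block holds 1 array of each group. PCNA ranged from -0.59 to -0.49, MCM6 from -0.53 to -0.42, MCM5 from 0.38 to 0.49, MCM7 from 0.30 to 0.39, GINS1 from 0.36 to 0.47, GINS2 from 0.33 to 0.46 and GINS3 from 0.30 to 0.43. After cyclic loess, MCM2 (0.08), MCM7 (0.30) and GINS1 (0.36) moved by more than the SD between arrays. The within-array shifts ranged from 0.89 to 0.94 for MCM5 minus MCM6, 0.79 to 0.85 for MCM7 minus MCM6, -0.65 to -0.60 for PCNA and 0.26 to 0.32 for GINS. The titles number the arrays of both groups alike but do not state a pairing. Deviations of same-numbered arrays had correlations of -0.14 to -0.03, which cannot settle whether they were paired. With the replicate block, 870 genes were higher and MCM7 missed the threshold. At an adjusted p of 0.01, 563 genes were higher and 523 lower, with 7 replication genes lower. Leaving out 1 array gave 840 to 1055 higher and 694 to 859 lower genes, against 1455 and 1070 with all 6 arrays, and over the 6 such fits the replication genes higher numbered 2 and those lower 10 to 11. Calls were 57.6% higher in the deposited values and 47.7% higher after cyclic loess. The replication genes higher numbered 6 with only genes over the median level tested and 5 with trend and robust options. The cause of these changes was not tested.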

Other observations

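PCNA-AS1, an antisense transcript that lies within PCNA (chr20:5119586-5119969, GRCh38.p14), was picked after its value was seen. It had 7.41, 7.77 and 7.78 in shBRG1 cells, against 8.20, 8.24 and 8.42 in NSC cells, 1.55-fold lower (-0.63, SE 0.12, limma adjusted p = 0.010, range 4.2e-04 to 0.040 over 13 alternatives). Antisense and sense transcript thus differed in the same direction, and whether the probes of either take up signal of the other was not tested.

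R3HDM1, whose profile over the 6 arrays lay nearest to that of PCNA, is a gene on chromosome 2 (chr2:135531484-135725269) within 500 kb of MCM6. Of 6 measured genes in that window around MCM6, R3HDM1 (-0.54, SE 0.07, limma adjusted p = 0.0034) and CXCR4 were lower, and UBXN4, which lies between R3HDM1 and MCM6, had a difference of 0.02 (SE 0.07). Over the windows of all 10 genes, a look added after the data were seen, 16 of 92 measured genes were higher and 6 lower, which is 23.9% past the threshold, against 17.0% of all genes (9.78% higher and 7.19% lower). With only genes over the median level tested, 27 of 54 genes passed, against 43.0% of all such genes.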
